A study of Canis lupus familiaris with 18 samples.

Results

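Astrocyte marker genes were followed across 18 RNASeq libraries of canine high grade oligodendroglioma (HGO). The rule named 10 genes by symbol, which were GFAP, AQP4, SLC1A2, SLC1A3, ALDH1L1, GJA1, S100B, FABP7, VIM and ALDOC. A row with that symbol was found for 8 of the 10, out of 29993 genes counted and 16324 genes with a symbol. ALDH1L1 and FABP7 were not matched by symbol and were not analysed here. All 8 matched genes passed the filter on low counts, as did 16495 genes in all. The libraries came from formalin-fixed, paraffin-embedded tumors of the forebrain in 11 French bulldogs and, for comparison, in 4 boxers and 3 Boston terriers. The labels give no treatment, and neither age nor sex was used here. All groups were tumors, so there was no normal brain to set the levels against.

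Astrocytes are the glial cells that take up glutamate, buffer water and potassium at their endfeet on blood vessels, and couple to each other through gap junctions. Neoplastic oligodendrocytes are recognized by the oligodendrocyte lineage factors OLIG2 and SOX10, and in HGO the intermediate filament GFAP is mainly used to find reactive astrocytes and any astrocytic component. None of the markers is restricted to astrocytes in every setting. S100B is also found in oligodendrocyte lineage cells, VIM in endothelial, mural and immune cells, and SLC1A3 in radial glia.

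The total counts per library ranged from 8212452 to 13169880. Values are normalized CPM, in which each gene's count is scaled by the effective size of its library. CPM was not divided by transcript length, so levels were compared between libraries and not between genes. In bulk tissue, fewer astrocytes and less RNA per astrocyte cannot be told apart. French bulldog 6 stood apart from the others: OLIG2 had 0 counts and SOX10 had 2 counts, against at least 1137 and 1986 counts in each of the other 17 libraries. The macrophage markers CD163 and CSF1R had 27819 and 4710 counts in that library, against at most 521 and 838 counts in the others. Breed comparisons are therefore given with and without French bulldog 6. The library names of French bulldogs 2 and 8 carry the same case number, although each is labelled as its own dog.

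**Figure D1:**
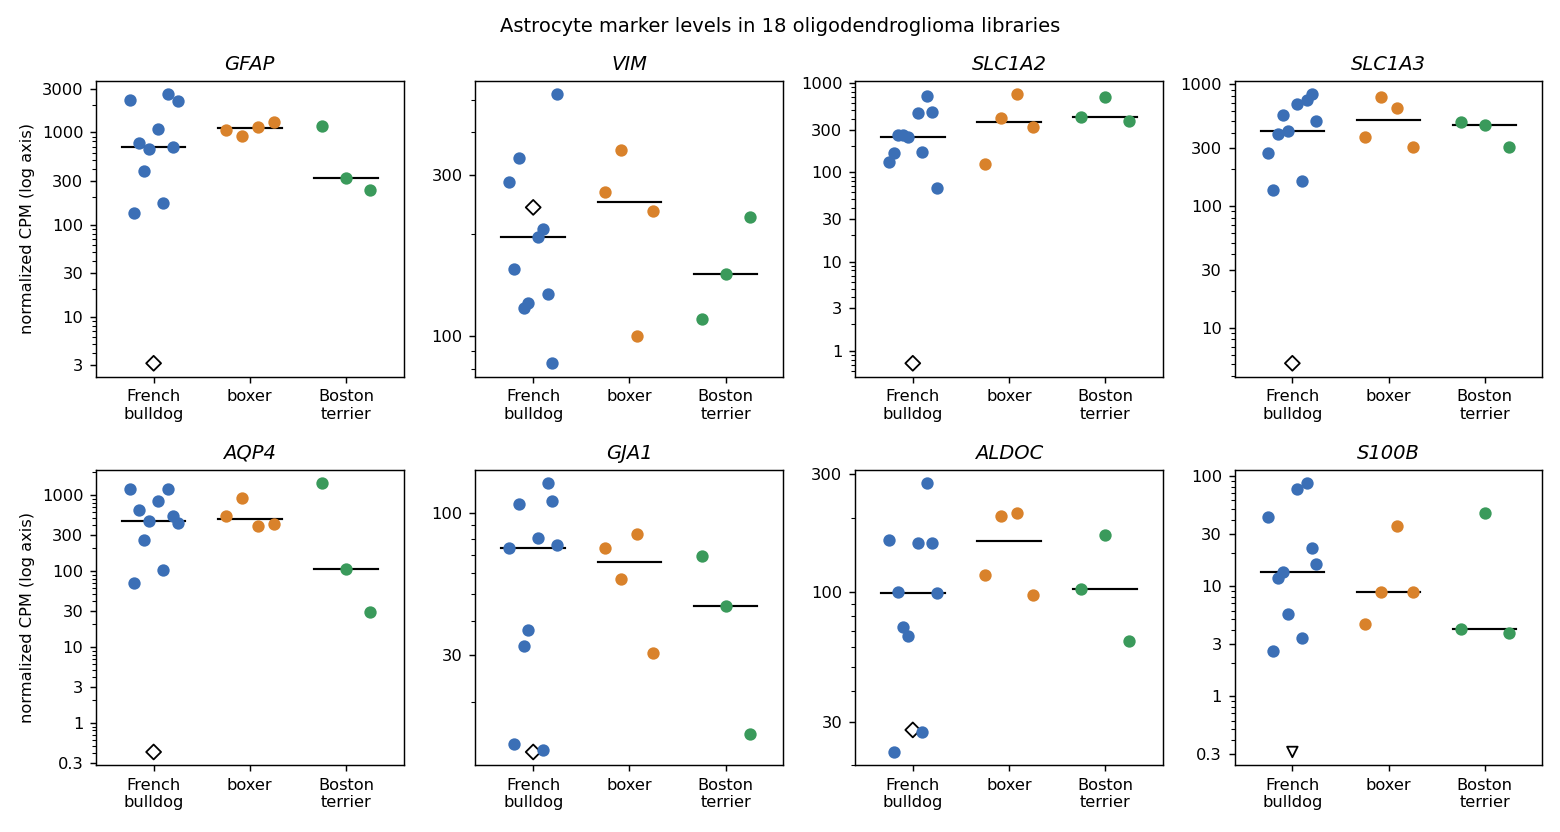
Normalized CPM (log axis, a different range in each panel) of the 8 astrocyte markers in each library, by breed; bars are group medians over all libraries of the breed. The open diamond is French bulldog 6, and the open triangle in the S100B panel stands for its 0 counts, drawn at the level of 3 counts (0.312 CPM). Apart from that library, the points of the 3 breeds overlap in all 8 panels.

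GFAP and VIM encode type III intermediate filaments. GFAP is the classic astrocyte filament, and VIM, vimentin, is found in immature and reactive astrocytes as well as in mesenchymal cells. GFAP in the French bulldogs ranged from 3.12 CPM in French bulldog 6 to 2584 CPM in French bulldog 9, with a median of 697 CPM. In the boxers GFAP was 1069, 912, 1152 and 1305 CPM in boxers 1, 3, 4 and 5. The Boston terriers had 1162, 319 and 236 CPM of GFAP in Boston terriers 2, 6 and 7. The boxers lay close together, whereas the French bulldogs spread on both sides of them: 3 French bulldogs were below the whole comparison range, 3 were above it and 5 were inside it. The fitted difference of French bulldogs from the comparison group was a log2 fold change of 0.18 (SE 0.73) with an edgeR adjusted p of 0.960. Without French bulldog 6 it was 0.37 (edgeR adjusted p = 0.859). In limma-voom, an alternative test, with all 18 libraries it was negative, at -0.76.

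VIM ranged from 83.1 CPM in French bulldog 10 to 518 CPM in French bulldog 11 among the French bulldogs, with a median of 196 CPM. The boxers had VIM levels of 266, 355, 100 and 234 CPM, in the order of boxers 1, 3, 4 and 5. Levels of VIM in Boston terriers 2, 6 and 7 were 112, 153 and 226 CPM. Of the 11 French bulldogs, 9 lay inside the comparison range. VIM differed by a log2 fold change of 0.08 (SE 0.34, edgeR adjusted p = 0.962), the smallest standard error of the 8 markers. Without French bulldog 6 it was 0.10 (edgeR adjusted p = 0.949). The sign of VIM was not stable, at -0.13 against the boxers alone but 0.42 against the Boston terriers alone. It was also -0.13 without French bulldog 11.

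SLC1A2 and SLC1A3 encode the glutamate transporters of astrocytes. SLC1A2 is the main transporter of mature forebrain astrocytes, and SLC1A3 is shared with radial glia. SLC1A2 in the French bulldogs reached from 0.729 CPM in French bulldog 6 through a median of 247 CPM to 716 CPM in French bulldog 9. The lowest French bulldog after that was number 11, with 67.3 CPM. Boxers 1, 3, 4 and 5 had SLC1A2 levels of 125, 404, 747 and 326 CPM. The 3 Boston terriers were less spread in SLC1A2, with 419, 694 and 382 CPM in dogs 2, 6 and 7. SLC1A2 had the lowest p of the 8 markers in the breed comparison, with a log2 fold change of -0.71 (SE 0.63), an unadjusted p of 0.272 and an edgeR adjusted p of 0.704. It was -0.55 without French bulldog 6 (edgeR adjusted p = 0.648). With any 1 library left out the difference ranged from -0.97 to -0.51, and in limma-voom it was -1.44. No French bulldog exceeded the comparison range and 2 were below it.

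SLC1A3 ranged in the French bulldogs from 5.10 CPM in French bulldog 6 to 822 CPM in French bulldog 10, with a median of 415 CPM. The levels of SLC1A3 in boxers 1, 3, 4 and 5 were 367, 782, 640 and 302 CPM. Boston terriers 2, 6 and 7 had SLC1A3 levels of 487, 457 and 307 CPM. The group means were 425 ± 265 CPM (SD, n = 11) in the French bulldogs and 477 ± 179 CPM (SD, n = 7) in the comparison group, with a log2 fold change of -0.17 (SE 0.53, edgeR adjusted p = 0.942). The fitted difference was -0.0038 without French bulldog 6. In limma-voom with all 18 libraries it was -0.74, and against the Boston terriers alone it turned to 0.05.

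AQP4 encodes the water channel of astrocytic endfeet, and GJA1 encodes the main connexin of astrocytic gap junctions. AQP4 had a median of 463 CPM in the French bulldogs, with a lowest value of 0.417 CPM in French bulldog 6 and a highest of 1217 CPM in French bulldog 9. In boxers 1, 3, 4 and 5 AQP4 was 537, 921, 397 and 422 CPM. The 3 Boston terriers held both the highest and, apart from French bulldog 6, the lowest AQP4 level of the series, with 1443 CPM in dog 2, 108 CPM in dog 6 and 29.3 CPM in dog 7. The spread over 17 libraries was 49.2-fold for AQP4, and the breed difference was a log2 fold change of -0.07 (SE 0.82, edgeR adjusted p = 0.988). It was 0.11 without French bulldog 6.

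GJA1 in the French bulldogs ranged from 13.1 CPM in French bulldog 6 to 129 CPM in French bulldog 9, with a median of 74.0 CPM. French bulldogs 2 and 8 were almost as low, at 14.1 and 13.3 CPM. The boxers had GJA1 levels of 74.4, 57.2, 83.1 and 30.4 CPM in dogs 1, 3, 4 and 5, and the Boston terriers 69.3, 45.2 and 15.2 CPM in dogs 2, 6 and 7. The 11 French bulldogs again lay on both sides, with 3 below, 5 inside and 3 above the comparison range. The log2 fold change of GJA1 was 0.22 (SE 0.48, edgeR adjusted p = 0.908), and 0.37 without French bulldog 6 (edgeR adjusted p = 0.806). Its sign was not stable, since it was -0.01 in limma-voom, -0.29 with the replicate number as a block in 14 libraries, and -0.19 against the 4 comparison dogs whose libraries are numbered 18 to 21, but 1.08 against the 3 numbered 1 to 3.

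ALDOC encodes the brain isozyme of aldolase, a glycolytic enzyme enriched in astrocytes, and S100B encodes a calcium-binding protein. ALDOC ranged in the French bulldogs from 22.6 CPM in French bulldog 2 to 276 CPM in French bulldog 9, with a median of 99.8 CPM. Boxers 1, 3, 4 and 5 had 118, 203, 209 and 97.8 CPM of ALDOC, and Boston terriers 2, 6 and 7 had 103, 171 and 63.8 CPM. The log2 fold change of ALDOC was -0.37 (SE 0.44, edgeR adjusted p = 0.789), or -0.23 without French bulldog 6 (edgeR adjusted p = 0.892), and 7 of 11 French bulldogs were inside the comparison range.

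S100B was at 0 counts in French bulldog 6 and reached 86.0 CPM in French bulldog 9, with a median of 13.3 CPM over the French bulldogs. S100B was 4.51, 8.87, 35.1 and 8.75 CPM in boxers 1, 3, 4 and 5. It was 4.05, 46.1 and 3.73 CPM in Boston terriers 2, 6 and 7. One dog of each comparison breed was thus several times above the others of its breed. S100B had the largest fitted difference in the positive direction, with a log2 fold change of 0.68 (SE 0.86, edgeR adjusted p = 0.809). Without French bulldog 6 it was 0.86 (edgeR adjusted p = 0.701). The value depended on single dogs, with 0.28 without French bulldog 9, 0.36 without French bulldog 7 and 1.23 without Boston terrier 6. It also depended on the method, with 0.06 in limma-voom. With the replicate number as a block it was -0.00027, in the 14 libraries numbered 1 to 7. Those leave out French bulldog 9, so the dogs changed along with the method there.

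The comparison of French bulldogs with boxers and Boston terriers asked whether astrocyte markers differ in HGO with breed. No astrocyte marker passed: 0 of 8 had an edgeR adjusted p under 0.05, and 0 of 8 had an unadjusted p under 0.05. Over all genes tested, 1 of 16495 (0.00606%) passed the adjusted threshold and 1744 (10.6%) had an unadjusted p under 0.05. The 8 fitted differences were split into 4 positive and 4 negative values, with a median log2 fold change of 0.0043 against 0.04 over all genes. Without French bulldog 6 there were 5 positive and 3 negative values, still with 0 of 8 passing at either threshold, against 3 of 16403 genes (0.0183%) at the adjusted and 1779 (10.8%) at the unadjusted one. The DESeq2 Wald test and limma-voom also gave 0 of 8 markers at both thresholds. In DESeq2 58 of 20885 genes with an adjusted p passed, and 2616 genes had an unadjusted p under 0.05. In limma-voom 2 of 16495 genes passed the adjusted threshold and 1536 the unadjusted one. The approximate 95% intervals of the differences were wide. The narrowest, that of VIM, ran from -0.59 to 0.75 on the log2 scale, and the widest, that of S100B, from -1.02 to 2.37. A difference of 2-fold between the breeds therefore lay within the interval of 7 of the 8 markers, all but VIM.

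**Figure D2:**
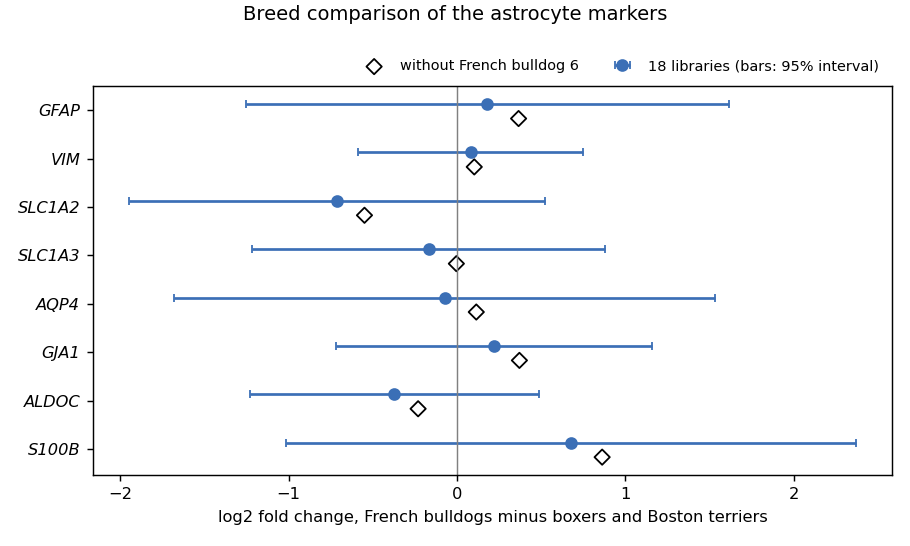
Log2 fold change (x axis) of each astrocyte marker in French bulldogs against boxers and Boston terriers. Filled points are the fit on all 18 libraries with its approximate 95% interval, and open diamonds are the fit without French bulldog 6. All 8 intervals include 0.

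Boston terriers and boxers were compared with each other, since the comparison group holds both breeds. Of 8 astrocyte markers 0 passed, and all 8 had an edgeR adjusted p of 1. In that contrast 0 of 17934 genes (0%) passed the adjusted threshold, and 381 (2.12%) had an unadjusted p under 0.05, none of them an astrocyte marker. The DESeq2 Wald test also called 0 of 8 markers. The fitted difference, Boston terriers minus boxers, was negative for 6 of 8 markers, with a median log2 fold change of -0.40 against -0.02 over all genes, and that of GFAP was -0.95 (SE 1.19). GFAP was -2.0 without Boston terrier 2 and -0.58 without Boston terrier 7, and GJA1, at -0.50 in the fit of all dogs, was -1.02 and -0.09 without the same 2 dogs. S100B was 0.33 in this contrast but -1.87 without Boston terrier 6. AQP4 was -0.11, was -3.05 without Boston terrier 2 and changed sign when boxer 3, Boston terrier 6 or Boston terrier 7 was left out.

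The library names in the labels also divide the comparison group by their numbers, with 4 libraries numbered 18 to 21 (boxers 1, 3 and 4 and Boston terrier 2) and 3 numbered 1 to 3 (boxer 5 and Boston terriers 6 and 7). AQP4 was 397 to 1443 CPM in the first set and 29.3 to 422 CPM in the second. GJA1 did not overlap between them, at 57.2 to 83.1 CPM in the first set and 15.2 to 45.2 CPM in the second, the only 1 of 8 markers with no overlap, against 891 of 16495 genes (5.4%). The contrast of the second set with the first gave a log2 fold change of -2.15 (SE 1.34) for AQP4 and -1.23 (SE 0.74) for GJA1, both with an edgeR adjusted p of 1, and 0 of 8 markers passed an unadjusted p of 0.05. Over all genes, 0 of 17934 (0%) passed the adjusted threshold in this contrast and 276 (1.54%) the unadjusted one. Against the 3 libraries numbered 1 to 3 alone, AQP4 in the French bulldogs was 1.54 on the log2 scale, in place of -0.07 against all 7. Each set holds both breeds, so breed and number set could be fitted together, a fit added after the data were seen. With breed as a term the second set differed from the first by -2.24 (SE 1.40) for AQP4 and -1.22 (SE 0.83) for GJA1. With the number set as a term Boston terriers differed from boxers by -0.46 (SE 1.32) for AQP4 and -0.02 (SE 0.82) for GJA1, and S100B, at -0.28, and SLC1A3, at 0.01, changed sign. For either term 0 of 8 markers passed an unadjusted p of 0.05, against 225 of 17934 genes (1.25%) for breed and 181 (1.01%) for the number set.

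French bulldog 6 was the lowest of 18 libraries for GFAP, SLC1A2, SLC1A3, AQP4, GJA1 and S100B, but not for ALDOC or VIM. The counts behind this were 30 for GFAP, 4 for AQP4, 7 for SLC1A2, 49 for SLC1A3, 126 for GJA1 and 0 for S100B. The median of the other 17 libraries was 1111-fold higher for AQP4, 447-fold for SLC1A2, 292-fold for GFAP and 89.6-fold for SLC1A3. It was at least 37.8-fold higher for S100B, taking 3 counts as the floor of French bulldog 6. The ratio was 5.28 for GJA1 and 3.70 for ALDOC. GJA1 and ALDOC in French bulldog 6, at 13.1 and 27.8 CPM, were therefore close to those of French bulldogs 2 and 8. VIM went the other way, with 240 CPM in French bulldog 6 against a median of 196 CPM, the rank of 13 among 18 libraries counted from the lowest. The levels of the 8 markers were thus not equally low in that library. In the same library the summed level of the 13 macrophage and microglia markers was 7532 CPM, against 75.4 to 468 CPM in the other 17. The summed level of 9 lymphocyte markers was 1140 CPM, against 72.2 to 167 CPM in the others. Most of that sum was PTPRC, at 812 CPM, with 190 CPM of CD79A, 42.3 CPM of CD2 and 39.1 CPM of CD4. The summed level of 9 mural and fibroblast markers was 918 CPM, the highest of 18, with 907 CPM in the next library. The part of those cells in the marker levels was not tested.

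Among the remaining 17 libraries the astrocyte markers varied more than most genes. The standard deviation of log2 CPM was between 0.72 for VIM and 1.60 for S100B, against a median of 0.55 over all genes tested. For S100B only 4.04% of genes had a larger standard deviation, and for AQP4 4.27%, whereas for VIM it was 34.2%. The ratio of the highest to the lowest library was 6.10 for SLC1A3, 6.24 for VIM, 9.64 for GJA1, 11.1 for SLC1A2, 12.2 for ALDOC, 19.5 for GFAP, 33.5 for S100B and 49.2 for AQP4. The lowest of these counts was 23, for S100B in French bulldog 2, so that counting error was small beside these ratios.

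Several libraries were high or low in most markers at once. French bulldog 9 was among the 3 highest of 17 for 7 of 8 markers, all but VIM. French bulldogs 2 and 8, which share a case number, were both among the 3 lowest for the same 6 markers, GFAP, SLC1A3, AQP4, GJA1, ALDOC and S100B. Boston terrier 7 was among the 3 lowest for 5 markers. Other libraries were mixed: French bulldog 11 was among the 3 highest for GFAP and VIM but the lowest for SLC1A2, and French bulldog 1 was among the 3 highest for GFAP and AQP4 but among the 3 lowest for SLC1A2 and SLC1A3. Counts of French bulldogs 2 and 8 differed by 9.41 chi-square units per degree of freedom over 15000 genes, which is beyond sampling noise, but the next closest pair of French bulldogs differed by 33.1.

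**Figure D3:**
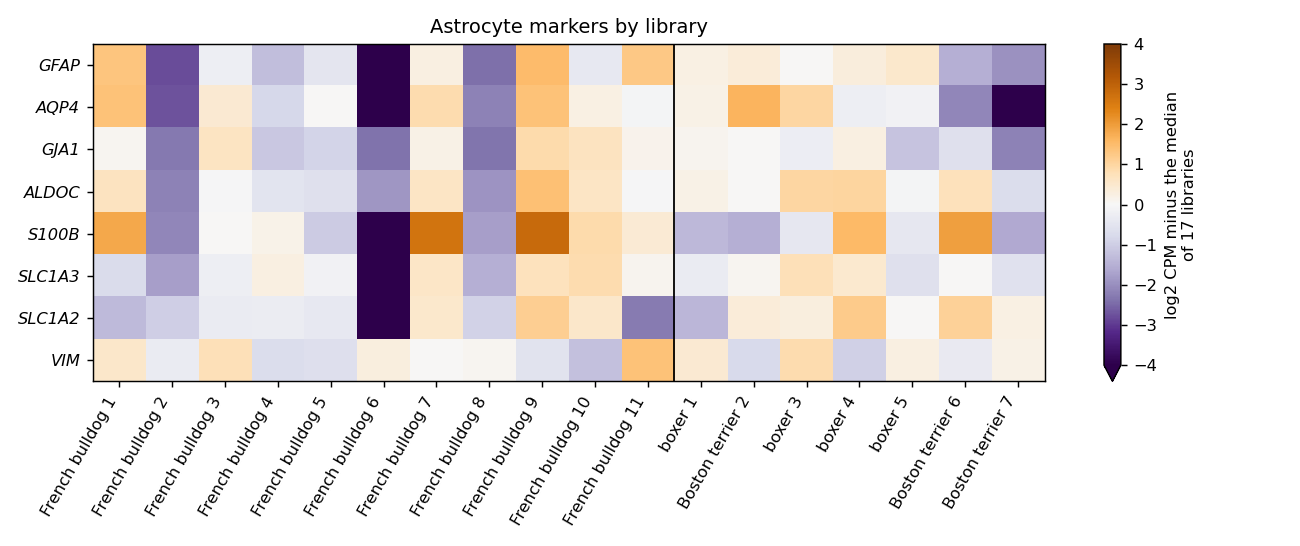
Astrocyte markers (rows) in each library (columns, French bulldogs left of the line), as log2 CPM minus the marker's median over the 17 libraries without French bulldog 6; the darkest purple also stands for lower values. French bulldog 6 is in the darkest purple for GFAP, AQP4, S100B, SLC1A3 and SLC1A2, in a lighter one for GJA1 and ALDOC and near the median for VIM, French bulldogs 2 and 8 are low in 6 markers, and French bulldog 9 is high in 7 of 8.

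The markers were then compared with each other over the 17 libraries, to see which of them were high and low in the same tumors. Of 28 pairs, 15 passed a Benjamini-Hochberg adjusted permutation p of 0.05 for Spearman's rho, 14 with a positive rho and 1 with a negative rho, and 23 pairs had a positive rho. The share of all gene pairs that would pass was not computed, so whether this count is particular to astrocyte markers was not tested. The strongest was ALDOC with S100B (rho = 0.787, permutation p = 0.0004, adjusted p = 0.0112, r = 0.774 with permutation p = 0.00016). GJA1 with ALDOC had a rho of 0.728 (adjusted permutation p = 0.0140, r = 0.836 with permutation p = 4e-05). GFAP with AQP4 had a rho of 0.721 (adjusted permutation p = 0.0140, r = 0.848 with permutation p = 4e-05). These 3 relations had the same sign in each arm, with rho of 0.952, 0.818 and 0.879 in 10 French bulldogs and 0.786, 0.714 and 0.571 in the 7 comparison dogs. Without the 2 libraries farthest from the median of the first gene, r was 0.730, 0.678 and 0.791.

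GJA1 was in 5 of the 15 pairs that passed, those with GFAP, AQP4, SLC1A3, ALDOC and S100B, and ALDOC was in 6, those with GFAP, AQP4, SLC1A2, SLC1A3, GJA1 and S100B. SLC1A2 passed with SLC1A3 (rho = 0.637, adjusted permutation p = 0.0251) and ALDOC (rho = 0.598, adjusted permutation p = 0.0252) but was close to 0 with GFAP (rho = 0.0980) and AQP4 (rho = 0.169). VIM did not pass with any marker in the positive direction. Its only pair that passed was the negative one with SLC1A2 (rho = -0.605, adjusted permutation p = 0.0252, r = -0.621 with permutation p = 0.00754), which had a rho of -0.648 in the 10 French bulldogs and -0.750 in the comparison dogs. With DESeq2's size factors that pair had a rho of -0.527 and an adjusted permutation p of 0.0572. The number of pairs that passed depended on French bulldogs 2 and 8. When they were averaged as 1 dog, ALDOC with S100B was the only pair that passed (rho = 0.744, adjusted permutation p = 0.0412), while 8 others had an adjusted p of 0.0509. Other draws of the resampling gave 1 to 3 pairs. The coefficients changed less than the count: 23 of 28 pairs still had a positive rho, GFAP with AQP4 had a rho of 0.671, GJA1 with ALDOC 0.676 and VIM with SLC1A2 -0.606, and by r 10 pairs passed the adjusted permutation p. For r over the 17 libraries, 14 of the 15 pairs passed the adjusted permutation p too, all but SLC1A2 with ALDOC. In the full set of 17, 15 of the 15 pairs kept their sign without the 2 farthest libraries and 10 of them had an unadjusted permutation p under 0.05. Over the comparison dogs alone 13 of the 15 had the same sign.

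**Figure D4:**
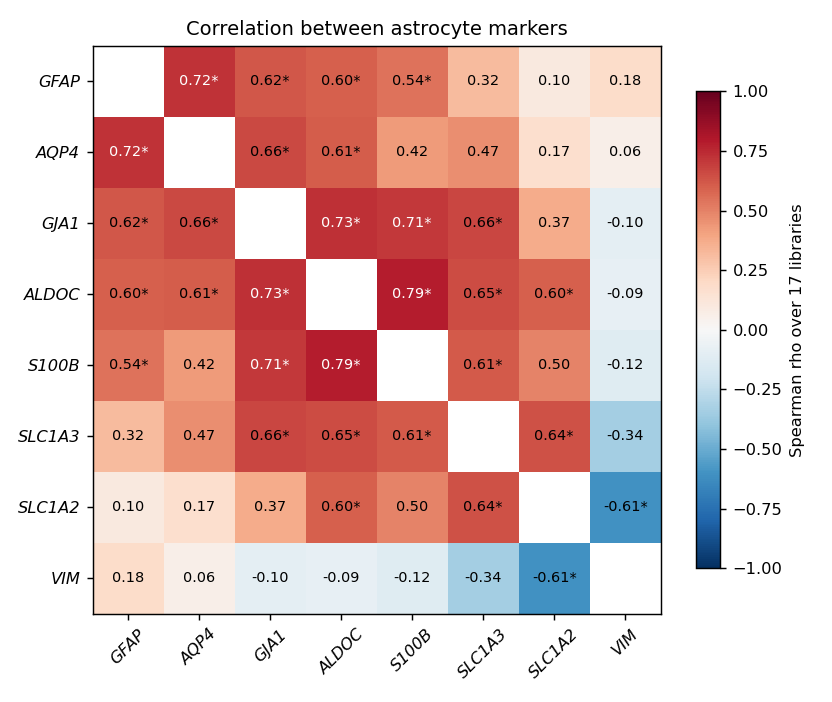
Spearman's rho of log2 CPM for each pair of astrocyte markers over 17 libraries without French bulldog 6; an asterisk marks a Benjamini-Hochberg adjusted permutation p under 0.05 over 28 pairs. The block from GFAP to SLC1A3 is positive throughout, SLC1A2 joins it through SLC1A3 and ALDOC, and VIM is near or below 0 except with GFAP (0.18).

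The genes whose pattern over the 17 libraries was most like that of each marker were found by the highest Spearman's rho among genes with a symbol. GFAP was followed by PAQR8 (rho = 0.941), TMEM63A (0.926) and NDRG2 (0.919), and NDRG2 is itself used as an astrocyte marker. ALDOC was closest to FAM107A (0.958), TENM4 (0.936) and NTM (0.917), and S100B to PPP1R1B (0.953), GAS7 (0.924) and SMPD1 (0.909). SLC1A3 was closest to PEA15 (0.929), CPE (0.912) and PLPP3 (0.892), of which PEA15 is an astrocyte-enriched phosphoprotein. SLC1A2 stood nearest to CBLN2 (0.924), GNG3 (0.922) and DPF1 (0.922), which are known from neurons. AQP4 was nearest to ARHGAP5 (0.929), ADAMTSL1 (0.907) and PRELP (0.897), and GJA1 to GPC4 (0.917), PDLIM3 (0.887) and AGMO (0.868). VIM was nearest to ITGA5 (0.858), an integrin subunit that binds fibronectin, TCF7L1 (0.858) and TAX1BP3 (0.831). Another astrocyte marker was among the closest 1% of 16494 genes in few cases: GFAP and GJA1 for AQP4, and ALDOC for S100B. The best-placed other marker ranked 74 for AQP4 and 137 for S100B. For the rest it ranked 218 for GFAP, 248 for ALDOC, 277 for GJA1, 726 for SLC1A3, 1054 for SLC1A2 and 4171 for VIM. Many other genes were thus closer to a marker than any fellow marker was.

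Each marker was also set beside the summed CPM of genes that mark other cell types, a comparison of 56 relations (8 markers and 7 lists) that was added after the data were seen. Over 17 libraries 21 relations passed an adjusted permutation p of 0.05 for rho, 9 of them negative, and all 21 also passed with an adjusted permutation p for r. The share of other genes that would pass with these lists was not computed. The oligodendrocyte lineage list, which includes OLIG2, SOX10 and PDGFRA, had a negative rho with 8 of 8 markers, and 5 passed: GJA1 (rho = -0.772, r = -0.769), ALDOC (rho = -0.767, r = -0.837), S100B (rho = -0.755, r = -0.717), GFAP (rho = -0.684, r = -0.810) and SLC1A3 (rho = -0.632, r = -0.718). The adjusted permutation p was 0.0273 or lower for these. The list of cycling genes was also negative with 8 of 8 markers, and 4 passed, with rho of -0.706 for ALDOC, -0.672 for SLC1A3, -0.647 for GJA1 and -0.613 for S100B. For 3 of these the r without French bulldogs 2 and 8, which are the farthest libraries, was between -0.393 and -0.510, and it was -0.606 for ALDOC.

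Relations with the neuron list were positive for 7 of 8 markers, and 5 passed. SLC1A2 had the highest rho with it (0.772, r = 0.751), then ALDOC (0.748, r = 0.718), S100B (0.738, r = 0.675), SLC1A3 (0.730, r = 0.757) and GJA1 (0.610, r = 0.609). GFAP instead had its highest rho with the myelin list (0.789, r = 0.800), and GJA1 passed with that list too (rho = 0.674, r = 0.720). VIM passed with the endothelial list (rho = 0.647, r = 0.597) and the mural and fibroblast list (rho = 0.593, r = 0.588) and with no neural list. GFAP passed with the endothelial list as well (rho = 0.613, r = 0.607). GFAP (rho = 0.711, r = 0.769) and AQP4 (rho = 0.581, r = 0.544) passed with the macrophage and microglia list. All 21 relations had the same sign in the 10 French bulldogs, and 19 of 21 in the comparison dogs, where GFAP with the oligodendrocyte lineage had a rho of 0.143 against -0.927 in the French bulldogs. Averaging French bulldogs 2 and 8 left 12 of the 21, among them SLC1A2 with neurons (rho = 0.779), GFAP with myelin (rho = 0.747) and the oligodendrocyte lineage with GJA1 (rho = -0.726), ALDOC (rho = -0.724) and S100B (rho = -0.709). Of the 4 relations with cycling genes ALDOC was the 1 that still passed (adjusted permutation p = 0.0364). The 9 relations that no longer passed were SLC1A3, GJA1 and S100B with cycling, GFAP and SLC1A3 with the oligodendrocyte lineage, GJA1 with myelin and with neurons, GFAP with the endothelial list and AQP4 with macrophages and microglia, at an adjusted permutation p of 0.0513 to 0.0982.

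**Figure D5:**
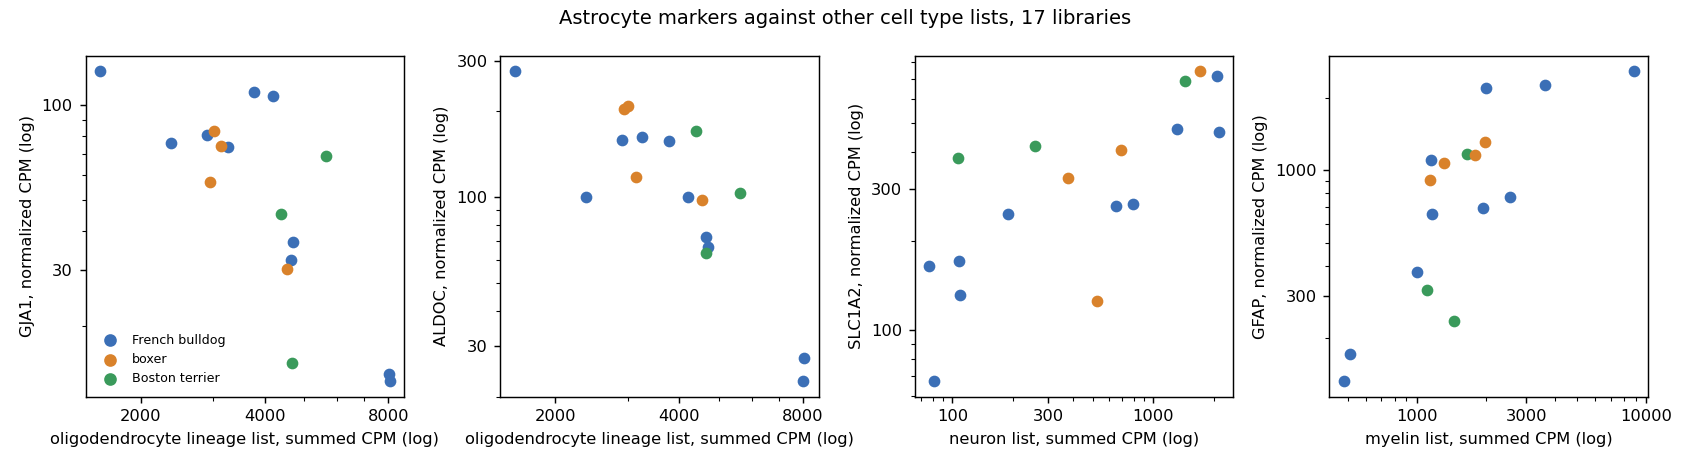
Normalized CPM of 4 markers (y axis, log) against the summed CPM of a list of other cell type markers (x axis, log), 1 point per library, 17 libraries without French bulldog 6. From left to right: GJA1 and ALDOC fall as the oligodendrocyte lineage sum rises (rho = -0.772 and -0.767), SLC1A2 rises with the neuron sum (0.772), and GFAP rises with the myelin sum (0.789).

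Other genes of the same pathways were read from lists. Of the other genes of mature astrocytes 22 were tested, 0 passed the adjusted threshold in the comparison of French bulldogs with boxers and Boston terriers, and 1 had an unadjusted p under 0.05 (against 10.6% of all genes). It was SLC7A11, the cystine and glutamate exchanger, at 31.5 ± 24.3 CPM (SD, n = 11) in French bulldogs against 62.4 ± 24.0 CPM (SD, n = 7) with a log2 fold change of -0.98 (SE 0.47, edgeR adjusted p = 0.470). SLC7A11 was at 9.27 CPM in French bulldog 6, and without that library its unadjusted p was 0.0731 (log2 fold change -0.86). FGFR3, a growth factor receptor of astrocytes, was then the 1 gene of the list at an unadjusted p under 0.05, in the other direction (log2 fold change 1.10, SE 0.50, edgeR adjusted p = 0.443). EDNRB, the endothelin receptor of reactive astrocytes, was 1.12 on the log2 scale (SE 0.70, edgeR adjusted p = 0.568), but this rested on French bulldog 11, which had 569.7 CPM. The mean of the other 10 French bulldogs was 38.8 CPM, against 40.0 CPM in the comparison group. The median of this list was -0.11 in log2 fold change. In French bulldog 6 its genes ETNPPL, GRM3, HEPACAM, MLC1 and NTSR2 were at 0 counts, while APOE, which macrophages also express, was at 525.6 CPM there.

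The reactive astrocyte list had 0 of 14 genes at either threshold, with 12 positive and 2 negative values and a median log2 fold change of 0.58. Of its 4 genes with the smallest p, CD44 (1.61, SE 0.82), SRGN (2.27, SE 1.25) and TIMP1 (2.08, SE 1.18) differed most. They came with 658, 205 and 298 CPM in French bulldog 6, the highest French bulldog for each. Without that library the median of the list was 0.17, again with 0 of 13 at either threshold. Macrophage and microglia genes had 6 of 13 at an unadjusted p under 0.05, all higher in French bulldogs, and 0 of 13 without French bulldog 6. Over all genes these shares were 10.6% and 10.8%. The median log2 fold change of that list was 1.70, and 0.12 without the library. The cycling list had 3 of 6 higher, with a median of 1.14, and 1 of 6 without French bulldog 6, with a median of 0.90. Its folds moved less than its count of calls: without the library MKI67 was 1.2 in place of 1.39 (unadjusted p = 0.0794), TOP2A 1.07 in place of 1.34 (unadjusted p = 0.0537) and BUB1 1.48 in place of 1.60 (unadjusted p = 0.0457), each with an edgeR adjusted p of 0.450 or higher. The lymphocyte list had 2 of 4 higher, against 0 higher and 1 lower without it. The oligodendrocyte lineage, myelin, neuron, endothelial, mural and fibroblast and ependyma lists had 0 genes at an unadjusted p under 0.05. Without French bulldog 6 this held for all of them but the oligodendrocyte lineage, of which OLIG2 had a log2 fold change of -0.38 (SE 0.17, unadjusted p = 0.0383, edgeR adjusted p = 0.442). No gene of these lists passed the adjusted threshold.

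Over all genes 10.6% had an unadjusted p under 0.05, and none of the shares in the next lists exceeded that. Astroglial transcription factors had 1 of 13 genes at an unadjusted p under 0.05, and so did the radial glia and stem-like list, with 1 of 11. It was the same gene, PAX6, a patterning factor of radial glia, with 10.1 ± 5.60 CPM (SD, n = 11) in French bulldogs against 5.62 ± 1.49 CPM (SD, n = 7), a log2 fold change of 0.85 (SE 0.35) and an edgeR adjusted p of 0.433. Of the intermediate filaments other than GFAP and VIM, LMNB1, a lamin of the nucleus, was the 1 of 11 at an unadjusted p under 0.05 (log2 fold change 0.76, SE 0.30, edgeR adjusted p = 0.433). PAX6 and LMNB1 stayed under an unadjusted p of 0.05 without French bulldog 6, with log2 fold changes of 0.98 and 0.72. The other families had 0 genes at either threshold over all 18 libraries. These were glutamate transport and turnover (9 genes, median log2 fold change -0.29), the gap junction connexins (6 genes, median 0.08), the endfoot water and potassium channel complex (12 genes, median -0.13) and the S100 family (7 genes, median -0.22). In the endfoot complex, KCNJ10, the potassium channel of endfeet, was -0.18 (SE 0.21), and DMD, dystrophin, was -0.67 (SE 0.52). Without French bulldog 6, AQP9, another aquaporin of that list, was -2.29 (SE 0.86, unadjusted p = 0.0162, edgeR adjusted p = 0.407), against 0.77 with it, and SLC38A2, a glutamine transporter of the glutamate list, was 0.41 (SE 0.20, unadjusted p = 0.0497, edgeR adjusted p = 0.459). FABP3 (0.77, SE 0.54) and ALDH1L2 (-0.21, SE 0.33) were the only relatives of FABP7 and ALDH1L1 that were tested.

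Ratios of counts between markers within a library do not depend on library size, and they were added after the data were seen. Since a ratio carries the lengths of both transcripts, it was read only between libraries. The ratio of SLC1A2 to SLC1A3 had a median of 0.594 in the French bulldogs (range 0.136 to 1.23) and 1.08 in the comparison group (range 0.341 to 1.52), a mean log2 difference of -0.71 with a two-sided exact permutation p of 0.138 (0.415 adjusted over 3 ratios). The mean log2 difference was -0.52 without French bulldog 6 (exact permutation p = 0.226). AQP4 to GFAP (exact permutation p = 0.660) and VIM to GFAP (exact permutation p = 0.598) did not pass either. VIM to GFAP was 76.9 in French bulldog 6, against 0.0514 to 1.21 in the other French bulldogs and 0.0871 to 0.955 in the comparison group.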

How the data were processed

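Total RNA was extracted from scrolls of fixed tumor blocks, depleted of ribosomal RNA with the SMARTer Stranded Pico kit and sequenced as paired-end reads. The authors trimmed the reads with Trimmomatic 0.33, mapped them with HISAT2 2.1.0 to a boxer genome, ran featureCounts and deposited raw counts per gene with no normalization. The strand setting of the counting is not given in the sources used here. Groups were taken from the breed and title labels. Each library is labelled as its own dog, so n counts dogs, except that the library names of French bulldogs 2 and 8 hold 1 case number. The members and gene lists were chosen with earlier results of these data known.

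The breed comparison was edgeR's robust quasi-likelihood test (edgeR 4.0.16 in R 4.3.3) on all 18 libraries with TMM normalization, filterByExpr by arm, and Benjamini-Hochberg adjustment over all genes kept. Standard errors were derived from the F statistic, and the 95% intervals assume normal error. Boston terriers and boxers were contrasted in a fit of 3 breeds, over 17934 genes. The count floor of 3 covers counting error only, as does any precision read from the totals. Correlations used log2 CPM with a prior count of 2, 17 libraries without French bulldog 6 and 100000 resamples, two-sided, with 28 pairs possible among 8 genes. Ratios used exact permutation tests. Alternatives were DESeq2 1.42.0, limma-voom (limma 3.58.1), DESeq2's size factors, no filter on low counts, subsets of the comparison group, each library left out, a replicate block, and the number set beside breed. Named genes were all members, of each list the 2 to 4 with the smallest p, the 3 nearest genes of each member, and OLIG2, SOX10, CD163 and CSF1R. Scripts were tested on simulated data. ALDH1L1 and FABP7 were not analysed here.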

Additional observations from a re-analysis of the deposited data

Results flagged for a closer look

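S100B in boxer 4 was 35.09 CPM, apart from the other 3 boxers, of which the nearest was at 8.865 CPM. The gap was 0.858 of the range of the 4 boxers. Each of 8 markers was examined in the boxers and in the whole comparison group, 16 groups in all. If CPM were normally distributed, chance alone would mark about 1 in 20 groups this way. On the log2 scale S100B was 2.23, 3.18, 5.14 and 3.16 in boxers 1, 3, 4 and 5, and the gap was not tested there. In the whole comparison group S100B was not flagged, with a gap of 0.259 of the range at its highest, Boston terrier 6. ALDOC, SLC1A2 and GJA1 were also highest among the boxers in boxer 4, at 209, 747 and 83.1 CPM, and VIM was lowest there, at 100 CPM.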

How the results depend on the processing

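Under each of 29 alternatives 0 of 8 astrocyte markers passed the adjusted threshold or an unadjusted p of 0.05 in the breed comparison, and the adjusted p of a marker was 0.518 or higher. Over all genes, those at an unadjusted p under 0.05 ran from 559 of 17661 against the Boston terriers alone to 3153 of 27192 with no filter. The number of genes called in all moved from 1 to 58 with DESeq2, 2 with limma-voom, and 0 with French bulldogs 2 and 8 summed, with the boxers alone, with the comparison libraries 18 to 21 alone and with libraries 1 to 3 alone. Leaving out 1 library gave 0 to 7 genes, with 7 without French bulldog 9, 3 without French bulldog 6, 2 without French bulldog 10 or boxer 5, and 0 or 1 without any other library. The numbers 1 to 7 do not pair the dogs, since deviations of same-numbered dogs correlated between -0.502 and 0.205. With them as a replicate block 0 genes were called, against 5 in the same 14 libraries without the block, an alternative added after the data were seen. In log2 fold change, signs turned with limma-voom for GFAP (-0.76) and GJA1 (-0.01), with French bulldogs 2 and 8 summed for AQP4 (0.04), against the boxers for GFAP (-0.16) and VIM (-0.13), against the Boston terriers for SLC1A3 (0.05) and AQP4 (0.04), against libraries 18 to 21 for GFAP (-0.11) and GJA1 (-0.19), and against libraries 1 to 3 for SLC1A3 (0.28) and AQP4 (1.54). Under the replicate block they turned for GFAP (-1.07), GJA1 (-0.29) and S100B (-0.00027), and in the 14 libraries without it for GFAP (-0.21) and GJA1 (-0.06). With 1 library left out GFAP ranged from -0.07 to 0.37, VIM from -0.13 to 0.27, AQP4 from -0.28 to 0.38, S100B from 0.28 to 1.23, GJA1 from 0.06 to 0.40, SLC1A2 from -0.97 to -0.51, SLC1A3 from -0.31 to -0.0038 and ALDOC from -0.62 to -0.20. Values that kept their sign were S100B 0.06, SLC1A2 -1.44, SLC1A3 -0.74, AQP4 -0.54, ALDOC -0.66 and VIM 0.02 with limma-voom. Under the block SLC1A2 was -1.09, SLC1A3 -0.82, AQP4 -0.66, ALDOC -0.90 and VIM 0.05, and in the 14 libraries without it SLC1A2 was -1.01, SLC1A3 -0.44, AQP4 -0.15 and ALDOC -0.66. Against libraries 1 to 3 GJA1 was 1.08, GFAP 0.73 and ALDOC -0.02, against the Boston terriers GFAP was 0.84 and ALDOC -0.04, and against libraries 18 to 21 AQP4 was -0.65. Between Boston terriers and boxers, with 1 library left out, GFAP ranged from -2.0 to -0.58, GJA1 from -1.02 to -0.09, VIM from -0.85 to -0.28, SLC1A2 from 0.01 to 0.82, SLC1A3 from -0.51 to -0.06 and ALDOC from -0.91 to -0.20, while AQP4 ranged from -3.05 to 0.45 and S100B from -1.87 to 1.29. With the number set of the comparison libraries as a term SLC1A3 (0.01) and S100B (-0.28) changed sign, and GJA1 was -0.02. In the comparison of French bulldogs with boxers and Boston terriers SLC1A2 and ALDOC were negative in all 29 alternatives. With French bulldogs 2 and 8 averaged the number of correlated pairs was 1 in place of 15 by rho, with 8 at an adjusted permutation p of 0.0509, and 10 by r. Other draws of the resampling gave 1 to 3, and 14 to 15 for all 17 libraries. S100B had 23 to 1115 counts in the 17 libraries, so its lowest levels carry the most counting error.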
